A study of Rattus norvegicus with 4 samples.

Results

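The genes described here encode the cytosolic chaperone HSP90, small heat shock proteins and the co-chaperones and transcription factor that work with them. They are Hsp90aa1, Hsp90ab1, Hspb1, Hspb8, Cryab, Bag3, Hsf1, Chordc1, Stip1 and Ahsa1, 10 of the 16581 genes that could be named on the array. They were chosen by symbol, through the accession of each gene probe, and 13 probes on 23 spots read them. All 10 had a value on every array. RNA came from NR8383, a rat macrophage line derived from lung lavage and used as a model of the alveolar macrophage. The cultures, a mix of adherent and floating cells described as after 20 passages, received zinc iron oxide (NRCWE021, ZnFe2O4) at 17 µg/mL for 4 h, and 4 biological replicates were hybridised on 1-colour rat arrays, 1 array each. The series sets exposed cells against unexposed cells, and the unexposed arrays were not analysed here. All values below therefore describe exposed cells, and none says that a gene rose or fell with exposure.

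HSP90 is an ATP-driven chaperone that holds kinases, hormone receptors and other client proteins in a form that can be activated. Co-chaperones load clients onto it, set the speed of its ATPase cycle and release them. Small heat shock proteins bind unfolding proteins without ATP and keep them from aggregating until HSP70 and BAG proteins take them on. HSF1 is the transcription factor that switches on many of these genes in stressed cells, and it binds inverted repeats of the letters GAA. Metals and oxidants that damage proteins are known activators of HSF1.

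The GAA repeats were looked up in the RefSeq promoter windows of the GRCr8 assembly, which run from 250 bases before a gene's start to 50 after it. A pair was GAA, any 2 bases, then TTC, or TTC, any 2 bases, then GAA, so both strands were covered, and overlapping pairs were counted. Windows were given for 7 of the 10 genes, and 5 of these held a pair, where 15.9% of 33469 promoters did. A run of 3 alternating units, which contains overlapping pairs, was found for Chordc1 alone among the 7, and for 0.798% of all promoters. No pair was found in the windows of Hsp90ab1 and Ahsa1. The stretches with pairs are shown because the strongly and the weakly detected genes below both carry them. Each is 30 bases on the strand of the gene, and capitals mark the pairs.
Hspb1, first pair, chr12:26432412-26432441, minus strand: cttcaactagaGAAGTTTCcagatgggggc
Hspb1, second pair, chr12:26432392-26432421, minus strand: agatgggggcaGAACCTTCctggccctgcc
Hspb8, chr12:45837274-45837303, plus strand: agaagccaggaGAAGTTTCtaggcgcgtga
Bag3, chr1:192533317-192533346, plus strand: ggatgggaccaGAAGTTTCtagccggccag
Chordc1, chr8:23650828-23650857, plus strand: ccgGAACGTTCGGGAAGATTCCTGAAgcag
Stip1, chr1:213657644-213657673, minus strand: cttctagtaggTTCCAGAAggcggcgcgtg

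Hspb1, Hspb8 and Bag3 shared the same 8 letters, GAAGTTTC, which stood in 1.39% of all promoters when both strands were read. These letters were singled out after the windows had been seen. The pair of Bag3 began 132 bases before the start and that of Hspb8 began 23 bases before it. The run of Chordc1, made of 4 overlapping pairs, lay after the start, at positions 10 to 32 when the start is counted as 0. A match describes the letters only and shows no binding.

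The arrays differed in how low a signal they could separate from none. Here a spot is called detected where the scanner software flagged it as well above background, and this held for 41.6% to 89.5% of the gene spots of an array. The median processed signal, which is the spot intensity after the software's background and trend correction, ranged from 7.37 to 542 intensity units. The dimmest of 10 added spike-in probes read 3.83 and 3.92 units on replicates 1 and 4, with 0 of 35 spots detected on each. On replicates 2 and 3 it read 537 and 109 units, with 35 and 34 of 35 spots detected. A signal near or below those values on replicates 2 and 3 is therefore weak evidence of a transcript, and detection is also given for replicates 1 and 4 alone. Of the macrophage markers measured, 7 of 7 were detected on all 4 arrays, and 0 of 4 epithelial and 0 of 4 fibroblast and smooth muscle markers were. Of 4 T cell markers 1 was, Cd4, which rat macrophages also carry. By single array, 4 of 4 epithelial and 3 of 4 fibroblast and smooth muscle markers were detected on replicate 2. On replicate 3 it was 3 of 4 for each of these lists. A signal 3 SD above the spots of the dimmest spike-in was reached on all 4 arrays by 3 of the 7 macrophage markers. It was reached by 0 of 4 markers in the epithelial, the fibroblast and smooth muscle and the T cell lists.

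Of the 10 genes, 8 were detected on all 4 arrays, by at least 1 probe on each array and not necessarily the same one, against 42.5% of all 16526 named genes with a value on every array. On both replicate 1 and replicate 4 the count was again 8 of 10, against 46% of all genes. The exceptions were Hspb1 and Hspb8, both small heat shock proteins. On single arrays, 9, 10, 10 and 8 of the 10 genes were detected on replicates 1 to 4, against 52.3%, 91.6%, 75.5% and 46.3% of all genes. In RNA of a whole culture, fewer cells that hold a transcript and less of it per cell cannot be told apart. A stricter limit was a signal 3 SD above the spots of the dimmest spike-in of the same array. It was passed on all 4 arrays by 5 of the 10 genes, Hsp90aa1, Hsp90ab1, Bag3, Hsf1 and Ahsa1, against 15.4% of all genes. No test was run on these shares, since the genes were picked with earlier results of the same arrays known.

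**Figure D1:**
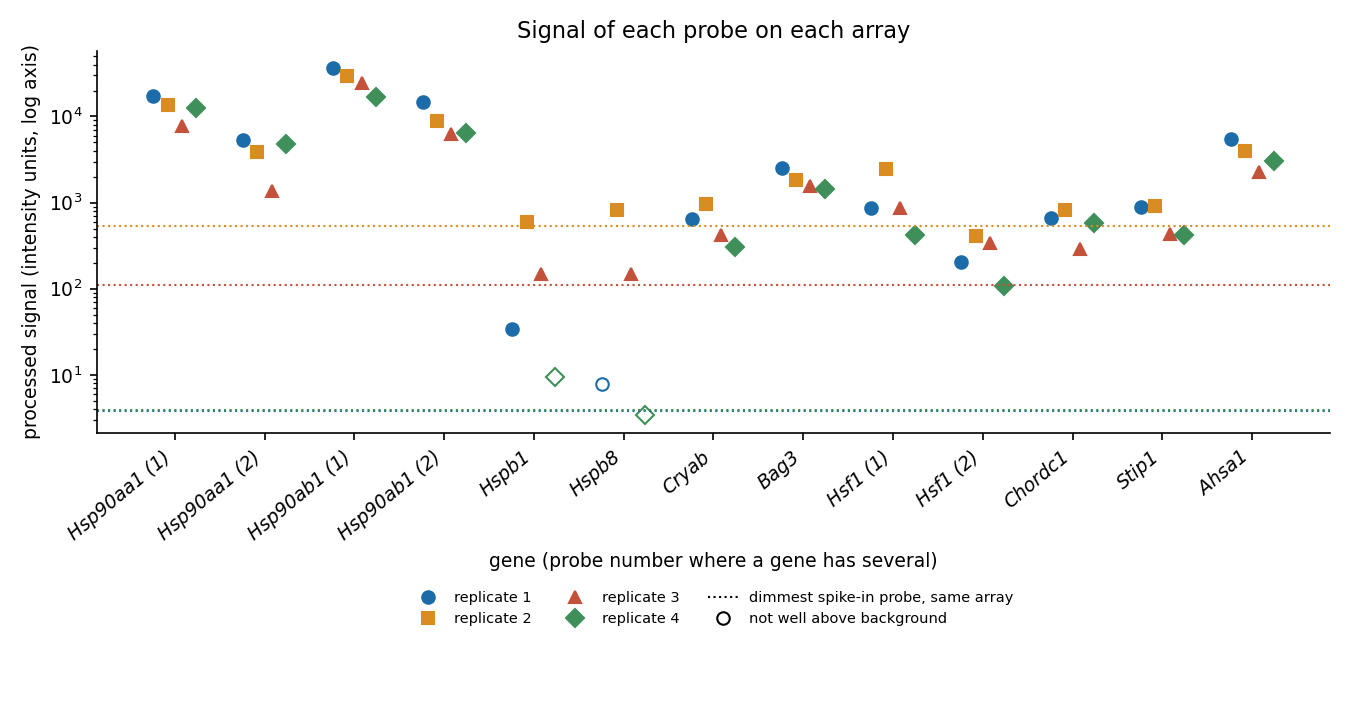
Processed signal (intensity units, log axis) of the 13 probes on the 4 arrays, with 1 symbol per replicate. Open symbols were not detected, and dotted lines give the mean signal of the dimmest spike-in probe on each array. The HSP90 probes lie above all 4 lines, whereas Hspb1 and Hspb8 sit close to the lines of replicates 2 and 3 and reach at most 34.1 units on replicates 1 and 4.

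The 2 cytosolic HSP90 genes were read at high signal in all 4 cultures. For Hsp90aa1, the form known as stress-inducible, the brighter probe had a processed signal of 17265, 13593, 7793 and 12454 units on replicates 1 to 4. Replicate 3 was lowest, and the highest signal was 2.22 times the lowest. The other probe of Hsp90aa1 gave 5376, 3864, 1377 and 4770 units in the same order, again lowest on replicate 3. For Hsp90ab1, the form known as constitutive, the brighter probe gave 36445, 29514, 24384 and 16944 units on replicates 1 to 4, with replicate 4 lowest. Its other probe gave 14785, 8772, 6332 and 6512 units and was lowest on replicate 3. All 4 HSP90 probes were detected on every array. The error that the scanner software attaches to these signals was about 10.0% of the signal and does not measure variation between cultures. Signals of different probes depend on the probe as well as on the transcript and are not set against each other. Processed signals are also not scaled between arrays, so an order of replicates by signal need not hold after scaling.

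Relative to the 75th percentile of each array on the log2 scale, the level used from here on, Hsp90aa1 stood at 6.21 ± 1.96 and Hsp90ab1 at 7.29 ± 1.68 (SD, n = 4). These SDs rest largely on the scaling. When the arrays were scaled on the 3 brightest spike-in probes, the SD was 0.48 for Hsp90aa1 and 0.37 for Hsp90ab1. By the percentile level, both genes were lowest on replicate 2, at 4.00 for Hsp90aa1 and 5.12 for Hsp90ab1. Hsp90aa1 was highest on replicate 4, at 8.10, and Hsp90ab1 on replicate 1, at 8.68.

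Small heat shock proteins were split, with Cryab detected on all arrays and Hspb1 and Hspb8 weakly or not detected. For Hspb1, the widely expressed HSP27, the 10 spots of the single probe were averaged on the log2 scale. They gave 34.1, 588, 146 and 9.48 units on replicates 1 to 4. The values for replicates 2 and 3 lay beside the 537 and 109 units of the dimmest spike-in on the same arrays and did not exceed it by 3 SD of its spots. On replicate 1, 9 of the 9 spots kept were detected, with signals of 25.5 to 40.4 units. On replicate 4 only 2 of 10 spots were, with signals of 3.70 to 23.8 units, so the probe did not count as detected there. The means of replicates 1 and 4 nevertheless exceeded the dimmest spike-in of their arrays by 3 SD. The spots of replicate 4 had an SD of 0.76 log2 units, against 0.22 on replicate 1.

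**Figure D2:**
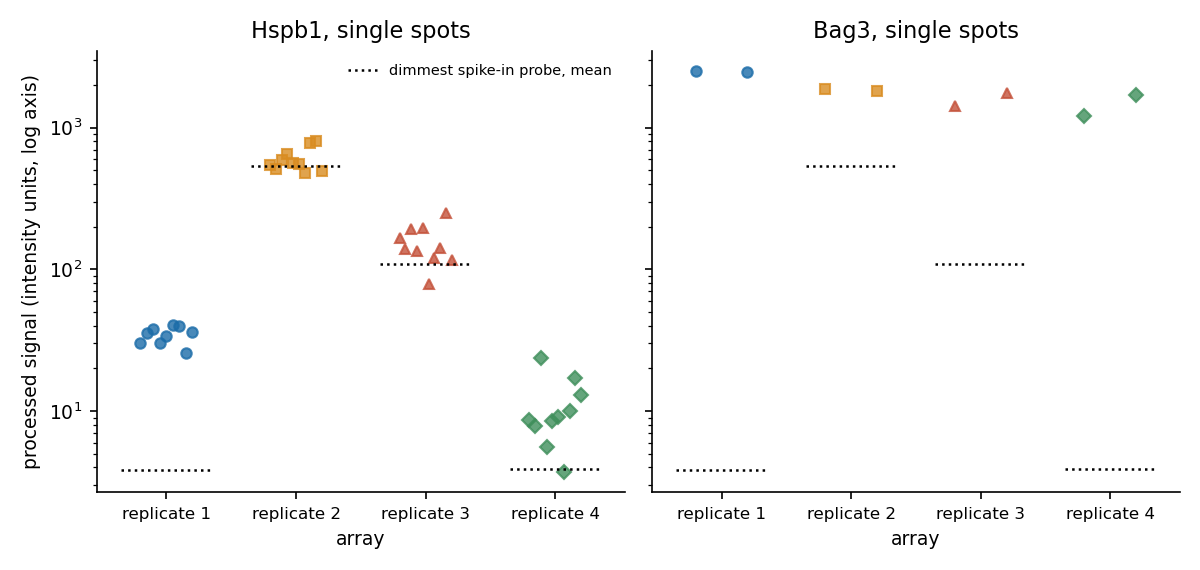
Processed signal (intensity units, log axis) of single spots of the Hspb1 and Bag3 probes on the 4 arrays, without outlier spots. Dotted lines give the mean of the dimmest spike-in probe. The Hspb1 spots of replicates 2, 3 and 4 lie on both sides of the line, with medians of 559, 140 and 8.88 units above it. Those of replicate 1 all lie above the line at 25.5 to 40.4 units, and all Bag3 spots lie at or above 1216 units.

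Hspb8, which acts with Bag3 in the removal of misfolded proteins by autophagy, gave 7.76, 818, 147 and 3.38 units on replicates 1 to 4. It was detected on replicates 2 and 3 but not on 1 and 4, and it exceeded the dimmest spike-in by 3 SD on no array. Its scanner error on replicate 4 was as large as the signal itself. Cryab, the alpha-B crystallin chain known from lens and muscle, gave 652, 957, 424 and 304 units on replicates 1 to 4 and was detected on each. It passed the stricter limit on replicates 1, 3 and 4 and not on replicate 2. Its level was 1.69 ± 1.34 (SD, n = 4), and the SD was 0.75 with spike-in scaling.

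The other small heat shock protein genes gave a similar split. Of 6 measured, 2 were detected on all 4 arrays, Hspb2 and Hspb6, against 42.5% of all genes. The stricter limit was passed on all 4 arrays by 0 of the 6. Hspb2, which lies next to Cryab in the gene table, gave 238, 570, 255 and 87.6 units on replicates 1 to 4, and Hspb6 gave 117, 298, 86.0 and 47.3 units. On replicates 2 and 3 Hspb6 read below the 537 and 109 units of the dimmest spike-in. Hspb3 was not detected on replicate 1 or 4, and Cryaa, the other alpha crystallin chain, was not on replicate 3 or 4. The remaining genes, Hspb7 and Hspb9, were named after their values were seen; Hspb7 was detected on no array and Hspb9 on replicates 2 and 3 alone. Since Cryab, Hspb2 and Hspb6 are known from muscle, 4 markers of striated muscle were read beside them. Des, Myh7 and Ckm were not detected on replicate 1 or 4, where their signals were 3.12 to 8.23 units. Tnnt2 was detected on all 4 arrays, at 364, 820, 208 and 156 units. Whether other cells had a part in the small heat shock protein signals was not tested.

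Bag3, the BAG protein that links HSP70 to small heat shock proteins, had the smallest span of the 10 genes over the arrays. Its 2 spots averaged 2501, 1847, 1579 and 1435 units on replicates 1 to 4. The highest signal was 1.74 times the lowest. Over the 6923 genes with a detected chosen probe on all arrays, the median of this ratio was 3.03. The 10th to 90th percentile range was 1.99 to 16.3. The ratio uses unscaled signals, so the floors of the arrays enter it for dim genes. Hsf2 at 1.69 and the macrophage marker Cd68 at 1.60, both picked after their values were seen, spanned less than Bag3. The level of Bag3 was 3.44 ± 1.83 (SD, n = 4), and the SD with spike-in scaling was 0.24. By the SD of the level 72.2% of the 6923 genes varied less than Bag3, and with spike-in scaling 1.56% did, so its rank depended on the scaling.

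Of the 5 other BAG family genes measured, 4 were detected on all 4 arrays, against 42.5% of all genes. Bag2 gave 2037, 1657, 1013 and 1051 units on replicates 1 to 4, and Bag5 gave 622, 559, 240 and 352 units. Bag4 was the exception, detected on replicates 1 and 2 and not on 3 or 4. Bag1 gave 1124, 1869, 168 and 152 units, with replicates 1 and 2 high and replicates 3 and 4 low by unscaled signal. By level, replicate 4 at 1.75 lay above replicate 2 at 1.14.

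Hsf1, the heat shock factor itself, was read by 2 probes, both detected on every array. The brighter gave 864, 2463, 861 and 419 units on replicates 1 to 4, and the other gave 206, 414, 343 and 108 units. By unscaled signal, both were highest on replicate 2 and lowest on replicate 4. By level, both were lowest on replicate 2, at 1.53 for the brighter probe and -1.04 for the other. The other probe did not pass the stricter limit on replicates 2 and 3. The brighter probe had a level of 2.50 ± 0.88 (SD, n = 4), which was the smallest SD among the 8 genes detected on all arrays. With spike-in scaling the SD was 1.13, the largest of the 8, so the order of the genes by spread depended on the scaling. Over the 8 genes the median SD was 1.76 with percentile scaling and 0.56 with spike-in scaling, against 1.55 and 0.73 over the 6923 genes. Of 3 further factors and regulators, 2 were detected on all arrays, Hsf2 and Hsbp1, against 42.5% of all genes. Hsf2 gave 221, 146, 131 and 131 units on replicates 1 to 4. The dimmest spike-in read 537 and 109 units on replicates 2 and 3, so the Hsf2 flag there is weak evidence. Hsbp1, a small protein that binds HSF1, gave 2416, 3466, 1069 and 1514 units. Hsf4, known from the lens, was not detected on replicate 1 or 4, at 4.24 and 4.60 units.

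**Figure D3:**
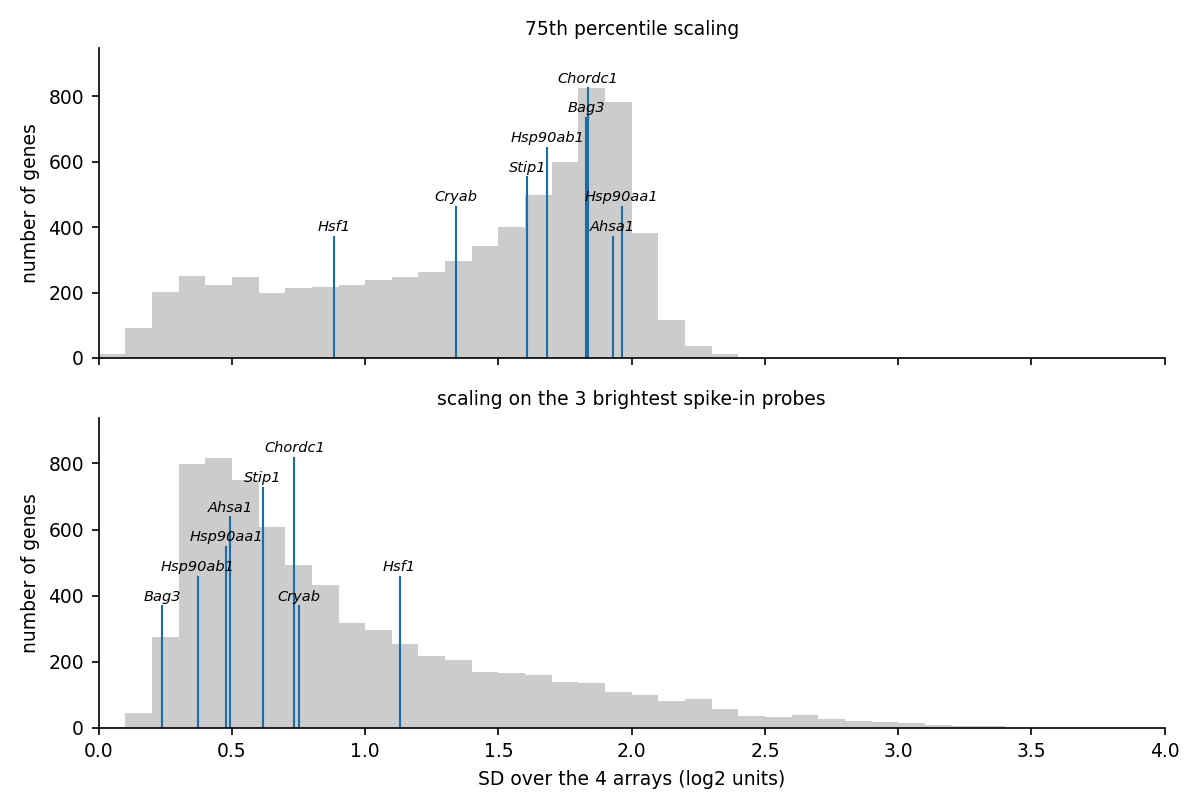
Number of genes by SD over the 4 arrays (log2 units) with 75th percentile scaling (top) and with spike-in scaling (bottom), for the 6923 genes detected by their chosen probe on all arrays. Blue lines mark the 8 genes among the 10 that qualify; Hsf1 is lowest of them at 0.88 on top and highest at 1.13 at the bottom.

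The 3 HSP90 co-chaperones among the 10 genes were detected on all 4 arrays. Stip1, known as HOP, bridges HSP70 and HSP90 and gave 885, 918, 433 and 416 units on replicates 1 to 4. Its level was 1.90 ± 1.61 (SD, n = 4). Ahsa1, known as AHA1, speeds the ATPase of HSP90 and gave 5496, 3927, 2240 and 3064 units, with a level of 4.40 ± 1.93. By unscaled signal, replicate 1 was highest for Ahsa1 and replicate 2 for Stip1, and in both genes replicates 3 and 4 were the lower ones. By level, replicate 2 was lowest in both, at 2.21 for Ahsa1 and 0.11 for Stip1. The highest level was on replicate 4 for Ahsa1, at 6.08, and on replicate 1 for Stip1, at 3.32. Chordc1, the HSP90-binding protein morgana, gave 656, 819, 292 and 582 units, with replicate 3 low by this unscaled signal. Its level was 1.73 ± 1.83 and was lowest on replicate 2. Ahsa1 passed the stricter limit on all arrays. Stip1 missed it on replicate 2, and Chordc1 missed it on replicates 2 and 3.

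Of 15 further HSP90 co-chaperones measured, 13 were detected on all 4 arrays, against 42.5% of all genes. Ptges3, known as p23, gave 2628, 2239, 968 and 2017 units on replicates 1 to 4. Cdc37, which brings kinases to HSP90, gave 13235, 7995, 6665 and 6245 units, and its relative Cdc37l1 gave 117, 462, 120 and 58.3 units. Fkbp4, a co-chaperone of steroid receptors, gave 5005, 3698, 2288 and 2343 units. The exceptions were Ppp5c, a phosphatase of HSP90 complexes, detected on replicate 1 alone at 40.4 units, and Aarsd1, not detected on replicate 4 at 12.97 units. Of the HSP90 paralogs, Trap1 in the mitochondria gave 7354, 5341, 4142 and 3603 units. Hsp90b1 in the endoplasmic reticulum gave 822, 2305, 108 and 77.9 units, so that the signal on replicate 1 was 10.6 times that on replicate 4. These signals are unscaled, and the same ratio was 2.04 for Trap1. By level, replicate 4 minus replicate 1 was -2.43 for Hsp90b1 and -0.06 for Trap1.

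Of 8 other genes measured that are known as HSF1 targets, 7 were detected on all 4 arrays, against 42.5% of all genes. The probe could differ between arrays here, as it did for Hspa1a, the inducible HSP70. Hspa8, the constitutive HSP70, gave 63622, 54958, 38166 and 42276 units on replicates 1 to 4. Hsph1, an HSP110 that exchanges nucleotides on HSP70, gave 91.6, 704, 193 and 65.5 units, and the DNAJ protein gene Dnaja1 gave 474, 445, 183 and 365 units. One probe of Hspa1a gave 60.7 and 117 units on replicates 1 and 4 and was detected on those alone. The other gave 457 and 252 units on replicates 2 and 3 and was detected on those alone. On replicate 2, the 457 units of Hspa1a and the 445 of Dnaja1 lay below the 537 units of the dimmest spike-in, so these flags are weak evidence. Serpinh1, the collagen chaperone, was the exception. Over all 6 lists of further chaperone genes, 30 of 39 were detected on all 4 arrays, against 42.5% of all genes. By the chosen probe alone it was 29, against 6923 of 16526 genes. The stricter limit was passed on all 4 arrays by 16 of the 39, against 15.4% of all genes. By list these were 9 of 15 co-chaperones, 3 of 8 other HSF1 targets and 2 of 5 BAG genes. They were also 1 of 2 HSP90 paralogs, 1 of 3 factors and regulators and 0 of 6 small heat shock proteins.

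**Figure D4:**
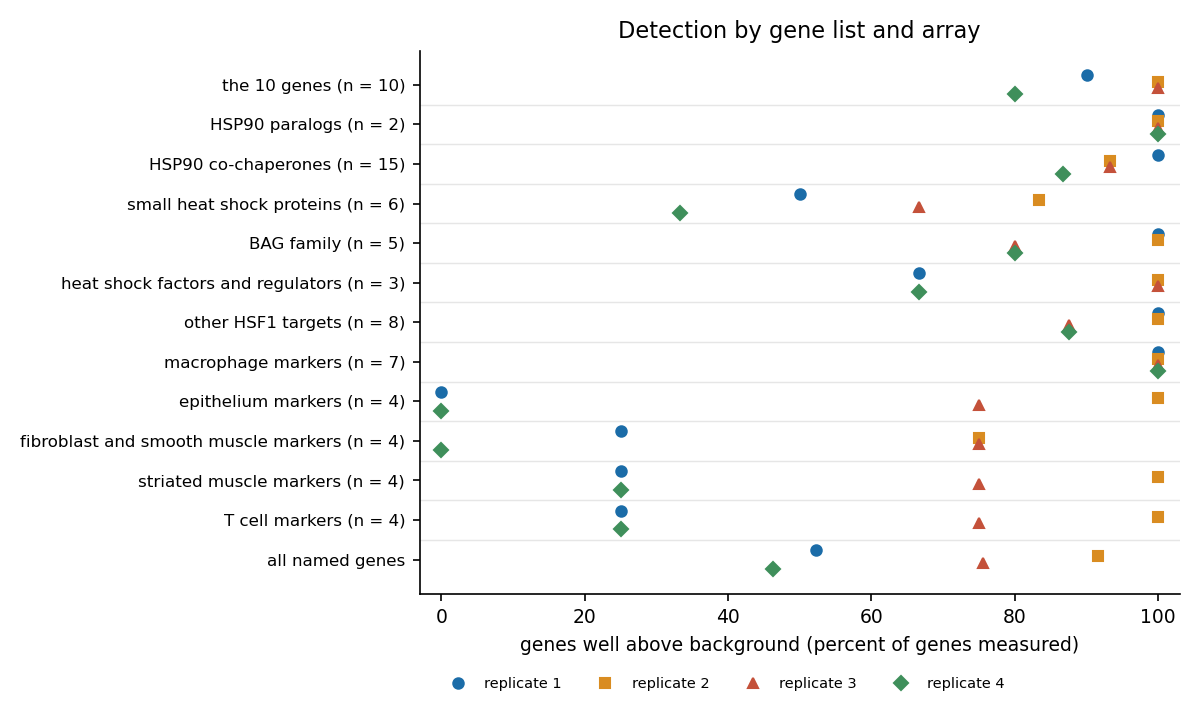
Share of measured genes detected (percent) on each array, for the 10 genes, the further chaperone lists, cell type markers and all named genes. The 10 genes reach 9, 10, 10 and 8 of 10 on replicates 1 to 4. Epithelial markers reach 0 of 4 on replicates 1 and 4, 4 of 4 on replicate 2 and 3 of 4 on replicate 3.

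Replicates 1 and 4 had the lowest floors, so the difference between these cultures was read gene by gene, a comparison chosen after the values had been seen. Over 6923 genes the level on replicate 4 minus that on replicate 1 had a median of 0.01 and a 10th to 90th percentile range of -0.40 to 0.42. The median over the 8 genes detected on all arrays was 0.03. Chordc1 was higher on replicate 4 by 0.80 and Hsp90aa1 by 0.50, and both lay above the 90th percentile, where 10% of all genes lie by construction. The error of such a difference from the scanner software was 0.20 for each of them, which leaves out variation between cultures. The second probe of Hsp90aa1 was also higher on replicate 4, by 0.80. Hsp90ab1, Cryab, Hsf1 and Stip1 had differences of -0.13, -0.13, -0.07 and -0.12, and Bag3 and Ahsa1 had 0.17 and 0.13.

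The same difference lay above the median of all genes for 4 of the 8 genes, and for 16 of 29 over all further chaperone lists, whose median was 0.02. By list, this held for 6 of 6 other HSF1 targets that qualified, with a median of 0.39. Hspa1a and Serpinh1 did not qualify, since their chosen probes were not detected on replicates 1 and 4. The other probe of Hspa1a, detected on those arrays alone, read 60.7 units on replicate 1 and 117 on replicate 4. Among small heat shock proteins the difference lay above the median for 0 of 2, with Hspb2 at -0.47 and Hspb6 at -0.34. Dnaja1 was higher on replicate 4 by 0.60, Hsph1 by 0.49 and Hspa8 by 0.38. Among the co-chaperones the median was -0.01, and 2 lay above the 90th percentile, Ptges3 at 0.59 and Rpap3, named after its value was seen, at 0.84. Hsp90b1 and Bag1 ran the other way, at -2.43 and -1.92. With spike-in scaling the median over all genes moved to -0.47, since each difference was shifted by the same amount. Chordc1 then stood at 0.32 and Hsp90aa1 at 0.02, and by that shift Bag3 and Ahsa1 became negative, at -0.31 and -0.35. Relative to the median of all genes the differences were 0.79 for Chordc1 and 0.49 for Hsp90aa1 with either scaling. These values compare 1 culture with 1 culture, so no replicate check of them exists and no p-value is given.

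**Figure D5:**
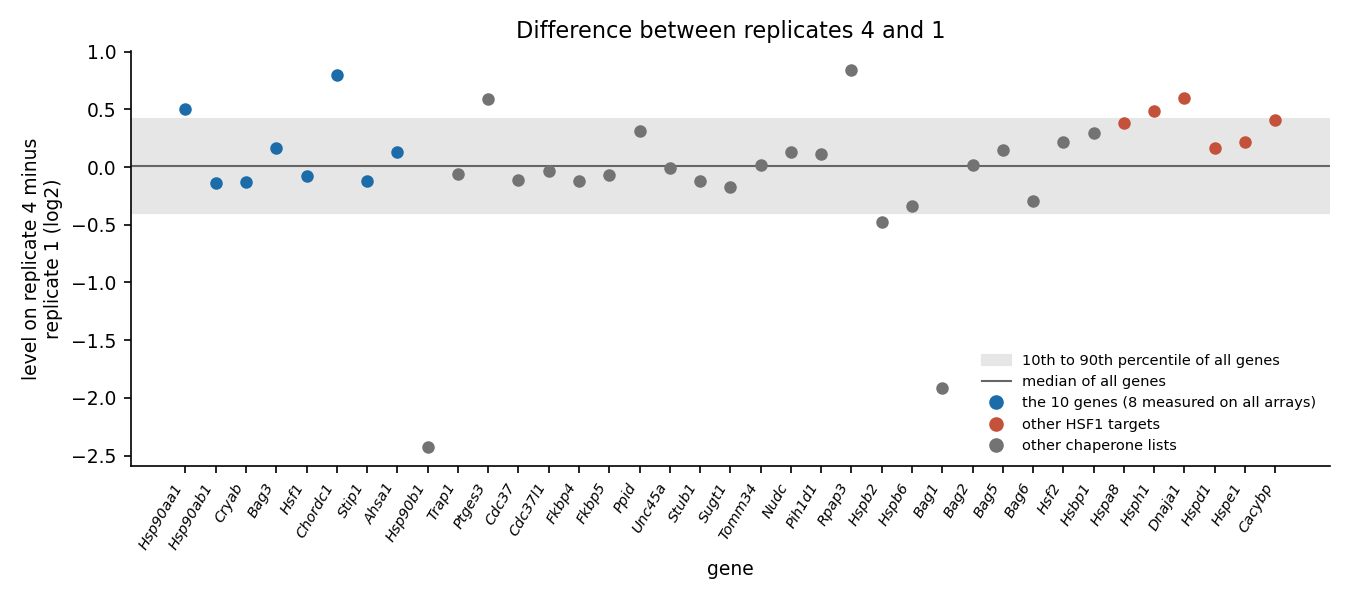
Level on replicate 4 minus replicate 1 (log2) for the 8 qualifying genes among the 10, other HSF1 targets and the other chaperone lists. The grey band is the 10th to 90th percentile of 6923 genes, -0.40 to 0.42; Chordc1 at 0.80 and Hsp90aa1 at 0.50 lie above it, and Hsp90b1 at -2.43 lies farthest below.

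Genes most like Hsp90aa1 and Bag3 in their course over the 4 arrays were found by the largest gap, on any array, between deviations from each gene's own mean. For Hsp90aa1 they were Smarce1, Ccn3 and Ctss, with largest gaps of 0.02, 0.04 and 0.04 log2 units. For Bag3 they were Rpl8, Tkt and RT1-T24-4, with largest gaps of 0.02, 0.03 and 0.04. Hspb1 was to be treated in the same way but was not detected on all arrays. This course is shared with the scaling and the floor of each array, and 4 arrays limit its precision.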

How the data were processed

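The deposited intensity values are those of Agilent Feature Extraction 11.0.1.1, per the file headers and the submitters' processing notes, with background subtraction and detrending within each array and none recorded between arrays. The deposited value table equals the median pixel intensity on all 62976 spots of each array and was used for nothing else. The labels call the samples biological replicates. All 4 form 1 group, so no test between groups was made.

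Spots flagged as outliers (832 to 1109 gene spots an array) were left out, spots of a probe were averaged as log2, and 213 probes without a spot on an array were dropped. A probe with several spots was detected where at least 0.5 of them were flagged. Accessions named 21109 of 45598 probes through RefSeq GRCr8. The array design names an older build, and no probe coordinates are given. Each gene is represented by its probe of highest mean signal, as log2 minus the array's 75th percentile. Scaling and SD were tested with Python 3.11.15 on simulated arrays that differed by a constant log2 shift. The simulation held no floor that differed between arrays, so it does not test the scaling for that. The members, lists and rules were chosen with earlier results of these data known. The text names the 10 genes, the first 4 measured genes of each chaperone list, exceptions where 3 or fewer, and 3 likeness genes for each of Hsp90aa1, Hspb1 and Bag3. Alternatives were the other flag, fewer arrays, every probe or the chosen probe, the spike-in limit, other scalings, normexp (limma 3.58.1, offset 50, on the median spot signal), all spots, the mean of all probes and leaving out each replicate. Counting a probe by any spot, and spike-in scaling of the difference between replicates 4 and 1, were added after seeing the data.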

Additional observations from a re-analysis of the deposited data

How the results depend on the processing

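Hspb1 and Hspb8 decided the count of genes detected by flag, which stayed between 8 and 10 of 10 for every choice of flag, probe and array. Over all genes these choices gave counts of 6024 to 15474. For the limit of 3 SD above the dimmest spike-in the count was 5, since Cryab, Chordc1 and Stip1 missed it as well. The same limit gave 16 of 39 further chaperone genes and 2546 of all 16526 genes. On at least 1 array all 10 genes were detected, beside 15474 of all genes. With replicates 2 and 3 alone it was again 10, beside 12363 of all genes. With the other flag the count was 9, beside 9927 of all genes. Without replicate 4, Hspb1 counted as detected and the count was 9, beside 7736 of all genes. Counting a probe by any flagged spot gave 9 as well, beside 7043 of all genes.

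The median SD of the 8 detected genes, 1.76 log2 units as reported, was 0.34 with the percentile taken over probes well above background on all arrays, 0.53 with quantile normalization and 0.56 with spike-in scaling. It was 0.094 with replicates 1 and 4 alone and 0.71 with replicates 2 and 3 alone. Without each replicate in turn it lay between 1.26 and 2.00. No ranking of the 10 genes by variation between cultures follows from the reported SDs. Taking the percentile over detected probes lowered all 10 levels by 2.82 by construction. Under the other settings 1 level moved by more than its SD, that of Hsf1 with the mean of all probes. The flag also marked probes dimmer than the dimmest spike-in on replicates 2 and 3, such as Hspb6 at 298 and 86.0 units, so the spike-in sets no limit for calls made by the flag.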
